A study of Mus musculus with 18 samples.

Results

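Motor neurons that expressed an induced Hoxc6 gene were compared with motor neurons that expressed an induced Hoxc8 gene, across all genes. The members were chosen by their labels and were the 3 iHoxc6 and the 3 iHoxc8 RNA-seq libraries, 6 of 18 libraries in the series. Both groups were mouse embryonic stem cells (the Ainv15 line) differentiated as embryoid bodies with retinoic acid and the hedgehog agonist SAG. Each line carried 1 copy of a doxycycline (Dox)-inducible, Flag-tagged Hox transgene at the Hprt locus on the X chromosome, received 3 µg/ml Dox for 48 h from day 2 and was collected on day 4. The control, used here only for background levels, was the iHoxc6 line without Dox on day 4 (3 libraries). The whole embryoid bodies were measured, so other cells such as interneurons and progenitors could be part of each library. Fewer cells of a type cannot be told apart from less RNA per cell.

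Hox genes encode homeodomain transcription factors that give cells their position along the head-to-tail axis. Hoxc6 and Hoxc8 belong to the central paralog groups, and in the spinal cord they are expressed at the brachial level, where the motor neurons that innervate the forelimb are formed. There, Hox proteins act together with cofactors of the TALE family, the limb-innervating lateral motor column is marked by Foxp1, and Hoxc6 and Hoxc8 are known for their part in setting apart motor pools, the groups of neurons that innervate single muscles.

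The iHoxc6 libraries held 28984351 to 33168533 counts and the iHoxc8 libraries 31081168 to 32670273. The iHoxc6 and control libraries came from 1 sequencing run and the iHoxc8 libraries from another, and the lines were derived separately, so the Hox gene, the line and the run cannot be told apart in any difference below. The iHoxc8 replicate 2 library stood apart from its group: its counts differed from those of the other two with a chi-square per degree of freedom of 59.4 and 75.4, against 7.33 between replicates 1 and 3. The iHoxc6 replicate 2 library also stood apart, with 15.8 and 26.3 against 6.78. Mitochondrially encoded genes took 1.48 to 1.66% of counts in iHoxc6 and 2.94 to 3.19% in iHoxc8. Their share was 1.93 to 3.12% in the control, 2.72 to 2.97% in iHoxc9 and 2.21 to 2.91% in iHoxc10, so iHoxc6 was the low group. The summed level of the 6 motor neuron markers was 391 to 444 CPM (counts scaled to library size with TMM factors) in iHoxc6 and 428 to 463 CPM in iHoxc8, and all 6 reached 1 CPM in both groups. The 5 spinal interneuron markers summed to 1.24 to 2.27 CPM in iHoxc6 and 1.90 to 2.34 CPM in iHoxc8, and none had a mean of 1 CPM in either group. The 2 floor plate markers summed to 61.2 to 100 CPM and 59.3 to 84.2 CPM. Markers of pluripotent cells summed to at most 0.178 CPM, and those of endothelium, endoderm, and neural crest and glia stayed below 1 CPM in both groups.

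In all, 744 genes differed between the groups, 643 higher and 101 lower in iHoxc8 (edgeR quasi-likelihood test, adjusted p under 0.01). This was 3.55% of the 20944 genes tested, 3.07% higher and 0.482% lower. Among the expressed genes (mean of at least 1 CPM), against which most gene lists below are to be read, 5.41% were called, 4.75% higher and 0.667% lower. With the stricter rule of a log2 fold change above 2 as well, 65 genes were called (0.31%), 44 higher (0.21%) and 21 lower (0.1%), and above a log2 fold change of 1 there were 397 (1.9%). All 65 had 3 libraries of one group outside the range of the other, a separation that 16.2% of all tested genes showed in each direction. Fits without iHoxc6 replicate 1, 2 or 3 called 120, 157 and 215 genes in all, of which 120, 156 and 212 were among the 744. Fits without iHoxc8 replicate 1, 2 or 3 called 180, 1318 and 126, of which 180, 688 and 126 were. The labels state no pairing, but same-numbered libraries of both groups deviated together. A paired fit of only these 6 libraries was added for that, with the replicate number as a block and no GC offsets. Its pairing thus came from the values it tests. It called 4937 genes (23.6%), among them all 744. Of the expressed genes it called 36.4%, and its calls are given below where they differ from a statement that genes were not called.

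The direction of the difference followed the base composition of the transcripts. The median GC content was 40.8% for the genes higher in iHoxc8, 54.0% for the lower ones and 49.8% for all expressed genes. Over 12285 expressed genes, which share libraries and are not independent replicates, Spearman's rho of the log2 fold change was -0.63 with GC content and 0.40 with transcript length. Among the 1229 genes with the lowest GC content the median log2 fold change was 0.68 and 27.2% of genes were called, against -0.21 for the 1229 genes with the highest, of which 16 were called. Only 17618 of the tested genes had a GC value, and a fit of these without offsets called 632. When the GC trend of each library was taken out as an offset, 179 of the 17618 genes were called (1.02%), 110 higher (0.624%) and 69 lower (0.392%). Of these, 9 higher (0.0511%) and 8 lower (0.0454%) had a log2 fold change above 2, 17 in all (0.0965%), against 48 of the 632. Among expressed genes the shares with these offsets were 1.39% in all, 0.879% higher and 0.513% lower. The share of higher genes among those called was 86.4% over all tested genes, 85.9% over genes with a GC value without offsets, and 61.5% with offsets. The part of the run in this trend was not tested, so the text below says where GC offsets ended the call of a named gene.

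**Figure D1:**
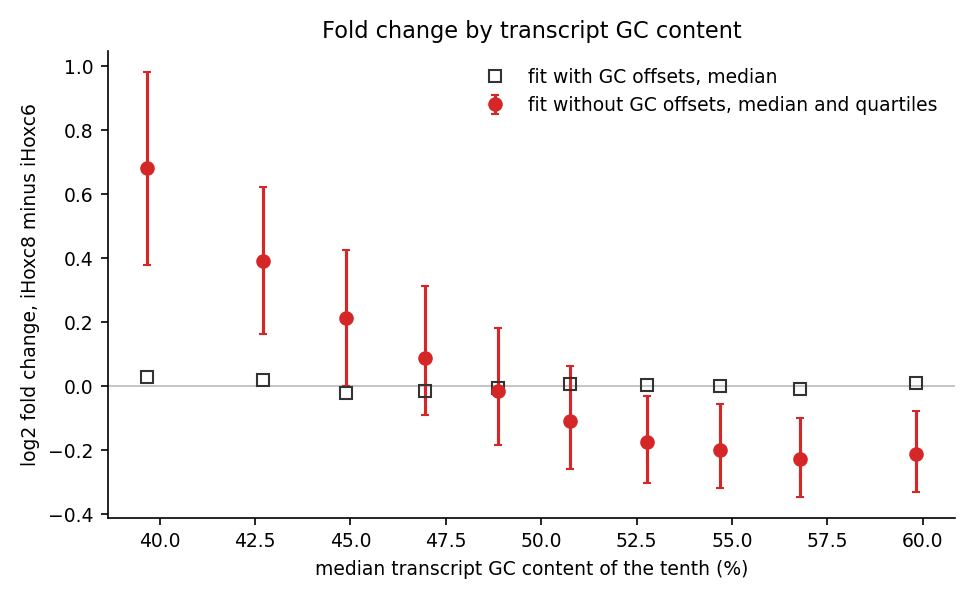
Log2 fold change (iHoxc8 minus iHoxc6) of expressed genes in 10 equal groups by transcript GC content (%), as medians with quartile bars without GC offsets and as medians with them. The median falls from 0.68 in the group of lowest GC to -0.21 in the highest without the offsets and lies close to 0 in every group with them.

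The induced genes separated the groups. Hoxc8 had 0 counts in all 3 iHoxc6 libraries and 397, 409.9 and 361 CPM in the iHoxc8 libraries, at least 3724-fold higher against a floor of 3 counts in a library. Hoxc6 was at 532, 499.9 and 511 CPM in iHoxc6 and at 1.57, 0.735 and 1.16 CPM in iHoxc8, with 5.17, 2.58 and 1.80 CPM in the control. Its log2 fold change was -8.78 (SE 0.32, adjusted p = 1.58e-14). Each line therefore carried the transcript its label names. Per kilobase of exon, the level of Hoxc6 in iHoxc6 was 214 ± 6.74 CPM (SD, n = 3) and that of Hoxc8 in iHoxc8 138 ± 8.98 CPM (SD, n = 3). These values use the annotated exons of the genes, 2408 and 2832 bases. The transgene transcripts need not have these lengths, so the 2 levels are not strictly comparable. Counts do not separate the transgene from the gene's own locus.

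Beside the induced pair, 2 of the other tested Hox genes of groups 1 to 8 passed the test. Hoxc5, the gene next to Hoxc6 in the HoxC cluster, was at 156, 149.7 and 144 CPM in iHoxc6 and at 81.5, 100.2 and 75.1 CPM in iHoxc8, and the groups did not overlap. It was lower in iHoxc8 by a log2 fold change of -0.81 (SE 0.15, adjusted p = 0.00206), with 204, 192 and 191 CPM in the control, and kept the call in 2 of 6 fits without a library. Hoxa7, another central Hox gene, was at 0.837, 0.467 and 0.590 CPM in iHoxc6 and at 0.0296, 0.200 and 0.0938 CPM in iHoxc8 (log2 fold change -2.53, SE 0.45, adjusted p = 0.00163). This was a low-level gene in both lines, and it kept the call in 3 of 6 such fits. Hoxc4, on the far side of Hoxc5, was at 145 to 159 CPM in iHoxc6 and 132 to 143 CPM in iHoxc8 (-0.17, SE 0.13, adjusted p = 0.467). Of the 15 genes of groups 1 to 5, 1 was called, and of the 8 of groups 6 to 8, 3 were. None of the 9 tested genes of groups 9 to 13 was called by edgeR or DESeq2, 1 had an unadjusted p under 0.05, and the paired fit called 1. Only 1 of the 9 reached a mean of 1 CPM in a group. Hoxc9 had no count in iHoxc6 and at most 0.0334 CPM in iHoxc8, below the floor.

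**Figure D2:**
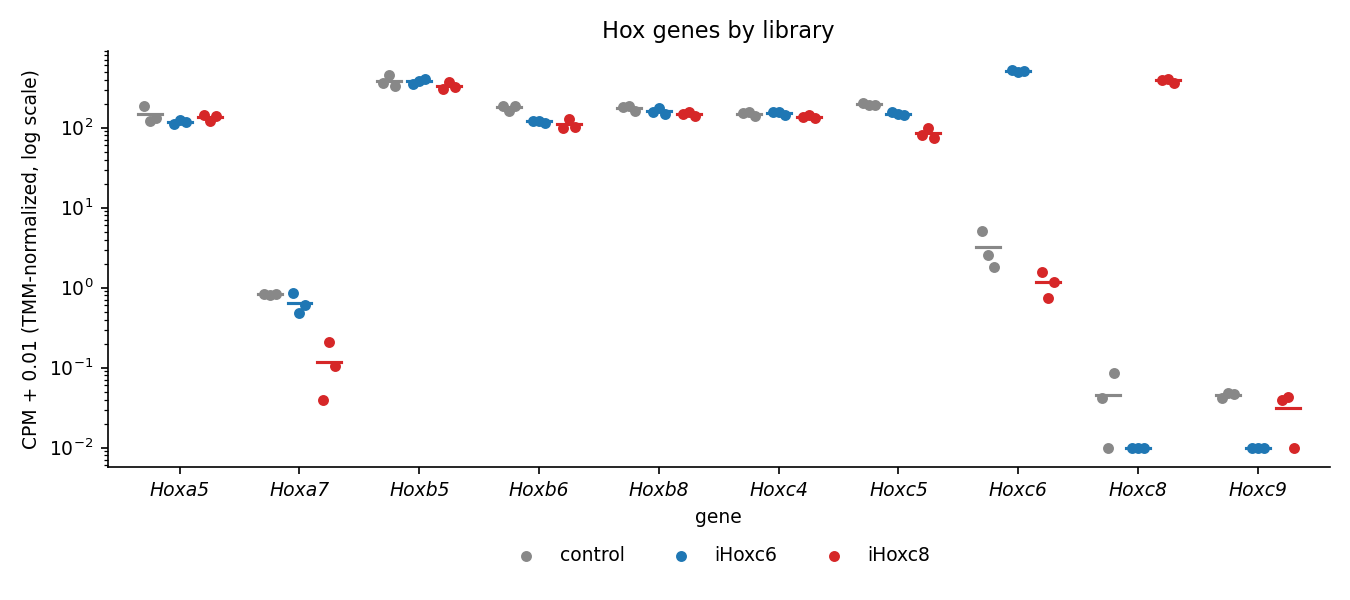
Levels of Hox genes in each control, iHoxc6 and iHoxc8 library (CPM, log scale), with points for libraries and bars for group means. Hoxc6 is near 500 CPM only in iHoxc6 and Hoxc8 near 390 CPM only in iHoxc8, and Hoxc5 is lower in all 3 iHoxc8 libraries than in all 3 iHoxc6 libraries.

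The sequence before the Hoxa7 start is shown because Hoxa7 was the one Hox gene outside the HoxC cluster that passed the test. It is from RefSeq (GRCm38.p6, minus strand, chr6:52218574-52218823) and holds no TAAT, the core that homeodomains bind, on either strand. That motif is found in 54.9% of 32851 promoters of the same length, and its absence in this window says nothing of binding.
Hoxa7: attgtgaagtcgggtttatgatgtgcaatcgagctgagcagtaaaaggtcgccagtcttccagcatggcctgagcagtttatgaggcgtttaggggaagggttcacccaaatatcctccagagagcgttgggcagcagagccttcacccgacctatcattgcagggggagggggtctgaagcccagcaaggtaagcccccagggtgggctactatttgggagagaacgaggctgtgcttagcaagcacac

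Whether motor neuron identity genes were called depended on the fit. None of the 12 genes of this list was called by edgeR in the fit of all libraries or by DESeq2, and 3 had an unadjusted p under 0.05. The paired fit of the 6 libraries called 5 of them, 4 higher and 1 lower. Their median log2 fold change was 0.08, beside 0.00 for all tested genes. Isl1, a LIM-homeodomain factor of newborn motor neurons, was at 115, 104 and 105 CPM in iHoxc6 and 157, 136 and 152 CPM in iHoxc8 (0.46, SE 0.25, adjusted p = 0.291). Mnx1, which marks postmitotic motor neurons, was at 58.1 to 63.9 CPM and 40.1 to 45.2 CPM (-0.47, SE 0.16, adjusted p = 0.0766). The libraries of both genes did not overlap between groups, and both differences passed the threshold only in the paired fit (adjusted p = 2.55e-05 and 2.99e-05). Isl2 (0.45, SE 0.22, adjusted p = 0.228) was likewise called only in the paired fit (adjusted p = 0.000357), and Lhx3 (-0.25, SE 0.20, adjusted p = 0.494) in neither (0.0212). None of the 9 TALE cofactor genes was called by edgeR in the fit of all libraries, 4 had an unadjusted p under 0.05, DESeq2 called 2, among them Meis1, and the paired fit called 4. Meis1 was at 133 to 137 CPM and 168 to 191 CPM (0.42, SE 0.12, adjusted p = 0.029), a difference of 0.02 with GC offsets.

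Among the cholinergic genes, 1 of 11 passed. Slc5a7, the choline transporter that takes up choline at the terminal, was at 1.08, 1.18 and 0.625 CPM in iHoxc6 and 5.24, 2.17 and 3.28 CPM in iHoxc8 (log2 fold change 1.88, SE 0.36, adjusted p = 0.00266). It was not called with GC offsets (1.33, adjusted p = 0.0323) and kept its call in 1 of 6 fits without a library. Chat, which makes acetylcholine, was at 16.8 to 20.2 CPM and 16.3 to 20.9 CPM (0.02, SE 0.22). Its locus overlaps that of Slc18a3, the vesicular acetylcholine transporter.

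Genes of the limb motor column and its pools differed in part: 4 of 21 were higher and 1 was lower in iHoxc8. This list's median log2 fold change was 0.36. Runx1, a transcription factor of a cervical motor pool, was at 5.26, 4.67 and 4.38 CPM in iHoxc6 and 17.7, 11.0 and 20.9 CPM in iHoxc8. Its log2 fold change was 1.79 (SE 0.29, adjusted p = 0.000812), and it was called in all 6 fits without a library and with GC offsets (1.64). Cdh8, a type II cadherin of motor pools, was at 0.453, 0.622 and 0.764 CPM and 2.63, 2.64 and 2.16 CPM (2.01, SE 0.24, adjusted p = 5.09e-05). Cdh7, a related cadherin, was at 0.523 to 0.695 CPM and 2.10 to 2.63 CPM (1.93, SE 0.35, adjusted p = 0.00176). Cdh8 kept its call in all 6 fits without a library, but Cdh7 in 2 of 6. With GC offsets Cdh7 was close to the threshold (adjusted p = 0.00994). All iHoxc8 libraries lay above all iHoxc6 libraries for these genes. Etv1, an ETS factor, was at 4.57 to 5.14 CPM and 10.1 to 12.8 CPM (1.23, SE 0.23, adjusted p = 0.00229), but 0.61 with GC offsets (adjusted p = 0.117). It kept its call in 1 of 6 fits without a library. Gfra3, a receptor subunit for the neurotrophic factor artemin, was at 4.71, 4.42 and 5.77 CPM in iHoxc6 and 2.45, 1.27 and 2.28 CPM in iHoxc8. It was lower by a log2 fold change of -1.30 (SE 0.22, adjusted p = 0.00117), and called in all 6 fits without a library.

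The genes that mark the limb column itself were not called in the fit of all libraries, but the paired fit called Foxp1 (adjusted p = 1.83e-06), Aldh1a2 (0.0073) and Lhx1 (2.05e-05). Foxp1 was at 127, 110.1 and 115 CPM in iHoxc6 and 206, 136 and 192 CPM in iHoxc8 (0.60, SE 0.18, adjusted p = 0.0341), against 46.3 to 74.7 CPM in the control. Aldh1a2, the retinoic acid-synthesizing enzyme of limb motor neurons, was at 65.2 to 104 CPM and 52.4 to 93.9 CPM (-0.27, SE 0.20, adjusted p = 0.446), with 24.7 to 35.0 CPM in the control. Lhx1, of lateral limb motor neurons and some interneurons, was at 9.12 to 10.5 CPM and 13.5 to 16.6 CPM (0.60, SE 0.14, adjusted p = 0.011), and was called with GC offsets (0.80, adjusted p = 0.00432). Of the 8 preganglionic and medial column genes 1 passed, Smad1, a transducer of BMP signals, at 26.1 to 26.5 CPM and 35.6 to 37.8 CPM (0.48, SE 0.11, adjusted p = 0.00761). It kept that call in 1 of 6 fits without a library.

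**Figure D3:**
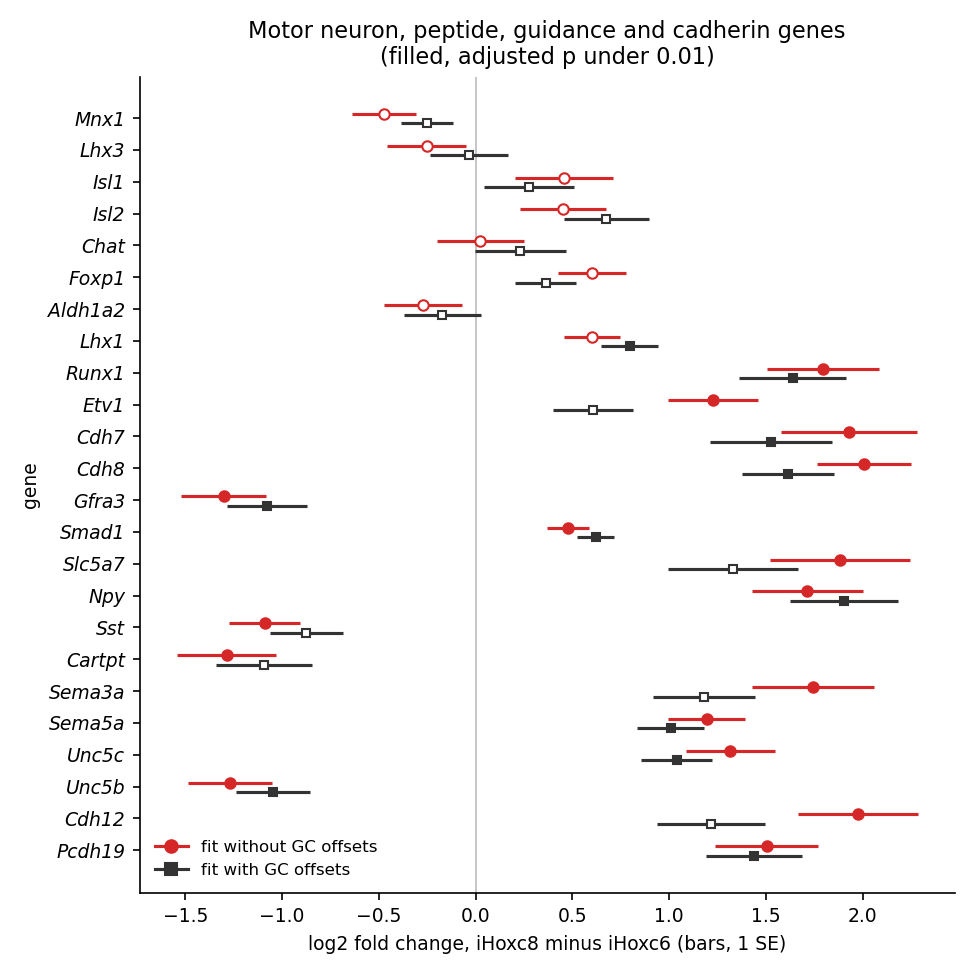
Log2 fold change (iHoxc8 minus iHoxc6) of motor neuron, column, pool, peptide, guidance and cadherin genes, with bars of 1 standard error, without and with GC offsets. Filled symbols passed adjusted p under 0.01. Runx1, Cdh7 and Cdh8 lie above 1 in both fits and Gfra3 and Unc5b below -1, while Isl1, Isl2, Mnx1, Lhx3 and Chat lie within 0.5 of 0 without the offsets.

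The 250 bases before the 2 annotated starts of Runx1 are shown because the gene's counts sum transcripts from both. They are on the minus strand of GRCm38.p6, at chr16:92826075-92826324 (distal) and chr16:92697330-92697579 (proximal). Capitals mark TAAT, of which the distal window holds 1 and the proximal window 0.
Runx1 distal: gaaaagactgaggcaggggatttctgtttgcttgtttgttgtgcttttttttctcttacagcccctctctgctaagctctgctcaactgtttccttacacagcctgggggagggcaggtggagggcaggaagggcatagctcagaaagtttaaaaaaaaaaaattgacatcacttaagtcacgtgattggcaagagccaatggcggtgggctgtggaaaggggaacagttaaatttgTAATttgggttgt
Runx1 proximal: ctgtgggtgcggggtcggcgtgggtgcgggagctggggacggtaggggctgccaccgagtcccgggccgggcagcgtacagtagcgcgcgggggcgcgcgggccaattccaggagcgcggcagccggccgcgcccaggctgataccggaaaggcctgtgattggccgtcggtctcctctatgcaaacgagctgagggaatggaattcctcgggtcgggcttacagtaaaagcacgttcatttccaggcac

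Cell adhesion and guidance genes held many of the called list members. Of 27 cadherins 9 were higher in iHoxc8 and none was lower, with a median log2 fold change of 0.36 and a median GC content of 45.6%. With GC offsets 5 of the 9 were called: Cdh7, Cdh8, Cdh11, Pcdh7 and Pcdh19. Cdh11, another type II cadherin, was at 15.5, 17.1 and 16.7 CPM in iHoxc6 and 41.3, 31.8 and 44.0 CPM in iHoxc8 (1.25, SE 0.19, adjusted p = 0.000444). Cdh12 was at 0.660 to 1.19 CPM and 2.27 to 4.10 CPM (1.97, SE 0.31, adjusted p = 0.000664), but missed the threshold with GC offsets (1.22, adjusted p = 0.0184). Both were called in all 6 fits without a library.

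Of 47 Eph, ephrin and guidance genes 8 were higher and 1 was lower. With GC offsets 3 of the 8 were called, Efnb2, Unc5c and Sema5a, and the lower gene was still called. Epha3, Epha7, Sema3c and Sema3d lost their calls, as did Sema3a below. Unc5c, a receptor for netrin, was at 14.5 to 20.2 CPM in iHoxc6 and 31.9 to 52.3 CPM in iHoxc8 (1.32, SE 0.23, adjusted p = 0.00138). Its relative Unc5b was at 6.59, 6.63 and 7.71 CPM and at 2.93, 2.77 and 2.97 CPM (-1.27, SE 0.22, adjusted p = 0.00117). The 2 netrin receptors thus differed in opposite directions, and both were called with GC offsets. Sema5a, a semaphorin, was at 13.5 to 15.8 CPM and 23.2 to 41.1 CPM (1.19, SE 0.20, adjusted p = 0.00104). Sema3a, a secreted repellent, was at 1.53 to 2.49 CPM and 4.84 to 8.48 CPM (1.74, SE 0.31, adjusted p = 0.00167), and was not called with GC offsets (1.18, adjusted p = 0.0167). Efnb2, an ephrin ligand, was at 26.6 to 30.3 CPM and 36.2 to 54.8 CPM (0.75, SE 0.16, adjusted p = 0.00619), a call kept in 1 of 6 fits without a library. In each of these 5 genes iHoxc8 replicate 2 had the lowest value of its group. In fits without a library, Unc5b kept its call in 6 of 6, Sema5a in 4, and Unc5c and Sema3a in 3 each.

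Neuropeptide genes were called in both directions, 1 higher and 2 lower of 22, of which 10 reached a mean of 1 CPM in a group. Npy, neuropeptide Y, was at 1.05, 1.84 and 0.729 CPM in iHoxc6 and 3.58, 5.31 and 3.10 CPM in iHoxc8 (1.71, SE 0.28, adjusted p = 0.00097). Sst, somatostatin, was at 149.7, 103 and 135 CPM and 52.4, 63.7 and 66.3 CPM (-1.09, SE 0.18, adjusted p = 0.00106). Cartpt was at 1.77 to 2.37 CPM and 0.680 to 1.00 CPM (-1.29, SE 0.26, adjusted p = 0.00343). Of the 3, only Npy was called with GC offsets, where the adjusted p of Sst was 0.0128 and that of Cartpt 0.0178. Npy and Sst kept their calls in 4 of 6 fits without a library, and Cartpt in 2.

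Of 26 genes of spinal interneuron classes, 10 of which reached a mean of 1 CPM in a group, 1 was lower. Wt1, a zinc-finger factor of a class of spinal interneurons, was at 3.10, 3.17 and 3.30 CPM in iHoxc6 and 0.769, 0.434 and 0.907 CPM in iHoxc8 (-2.17, SE 0.35, adjusted p = 0.000734), and was called in all 6 fits without a library and with GC offsets. None of the 27 genes of ventral progenitor domains was called by edgeR, 8 had an unadjusted p under 0.05, DESeq2 called 5 and the paired fit 9. Of 26 cell cycle genes 1 was called, Ccne2, cyclin E2, at 3.90 to 5.29 CPM and 9.32 to 11.4 CPM (1.18, SE 0.28, adjusted p = 0.00973). That call was kept in 0 of 6 fits without a library, and the value was 0.24 with GC offsets. Of 13 neurotransmitter genes, 5 of which reached a mean of 1 CPM in a group, edgeR called none. Unadjusted p was under 0.05 for 3, DESeq2 called 2 and the paired fit 3. The summed progenitor markers were at 344 to 456 CPM in iHoxc6 and 376 to 477 CPM in iHoxc8, and the groups overlapped. The sum hid opposite differences. Hes5 was at 21.9 to 34.2 CPM and 13.8 to 15.4 CPM (-0.97, SE 0.23, adjusted p = 0.0107). Sox2 was at 43.3 to 50.8 CPM and 57.8 to 71.7 CPM (0.50, SE 0.14, adjusted p = 0.0241). Only DESeq2, not edgeR in the fit of all libraries, called both. Olig2 and Nes overlapped between groups. The postmitotic neuron markers summed to 4793 to 4951 CPM and 5231 to 5833 CPM, and 2 of 5 were called, Dcx and Map2, neither of them with GC offsets.

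Imprinted genes are expressed from 1 parental allele, and one of them, Grb10, had the largest log2 fold change of the nuclear genes over 100 CPM in a group, after the induced pair. Of 43 tested, 6 were higher and 2 lower. Grb10, an adaptor protein that restrains growth factor receptor signalling, was at 22.9, 22.7 and 25.3 CPM in iHoxc6 and 369.6, 394 and 438 CPM in iHoxc8. The control libraries were at 23.1, 32.9 and 18.5 CPM, and those of the other induced lines at 52.1 to 94.9 CPM (iHoxc9) and 200 to 247 CPM (iHoxc10). The log2 fold change was 4.08 (SE 0.23, adjusted p = 7.58e-11), 4.07 with GC offsets, and it was called in all 6 fits without a library.

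The other imprinted genes that were higher included growth regulators. Cdkn1c, an inhibitor of cyclin-dependent kinases, was at 27.3, 38.4 and 23.9 CPM and at 127, 173 and 126 CPM (2.25, SE 0.25, adjusted p = 1.72e-05). In iHoxc9 it was at 53.5 to 66.8 CPM and in iHoxc10 at 172 to 231 CPM. Igf2, a growth factor, was at 15.9, 21.6 and 10.9 CPM and at 58.6, 61.0 and 51.4 CPM (1.82, SE 0.28, adjusted p = 0.000659), with 3.79 to 6.78 CPM in the control. In iHoxc9 it was at 25.8 to 55.3 CPM and in iHoxc10 at 85.2 to 178 CPM. H19, the noncoding RNA whose gene neighbours Igf2, was at 847, 1251 and 647 CPM and at 199, 181 and 156 CPM (-2.36, SE 0.42, adjusted p = 0.00163). Igf2 and H19 thus differed in opposite directions, with no overlap between groups for either. With GC offsets H19 missed the threshold (-2.14, adjusted p = 0.0118), and its control libraries ranged from 418 to 1412 CPM. Its iHoxc9 libraries were at 517 to 1061 CPM and its iHoxc10 libraries at 313 to 612 CPM. Peg13, a noncoding RNA within the Trappc9 gene, was named for the size of its change: it was at 374, 359 and 351 CPM and at 94.1, 76.3 and 75.8 CPM (-2.14, SE 0.20, adjusted p = 1.59e-06), with no GC value to test it with offsets. In iHoxc9 it was at 285 to 292 CPM and in iHoxc10 at 126 to 131 CPM. Nnat (-0.85, SE 0.18, adjusted p = 0.00509) and Blcap (0.61, SE 0.11, adjusted p = 0.00159) also differed in opposite directions, but Nnat was not called with GC offsets (-0.64, adjusted p = 0.0651) and kept its call in 1 of 6 fits without a library. Their loci overlap, and whether counting used strand is not given in the sources used here. Zim1 and Ube3a were higher by 2.35 and 1.53 on the log2 scale, and missed the threshold with GC offsets.

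**Figure D4:**
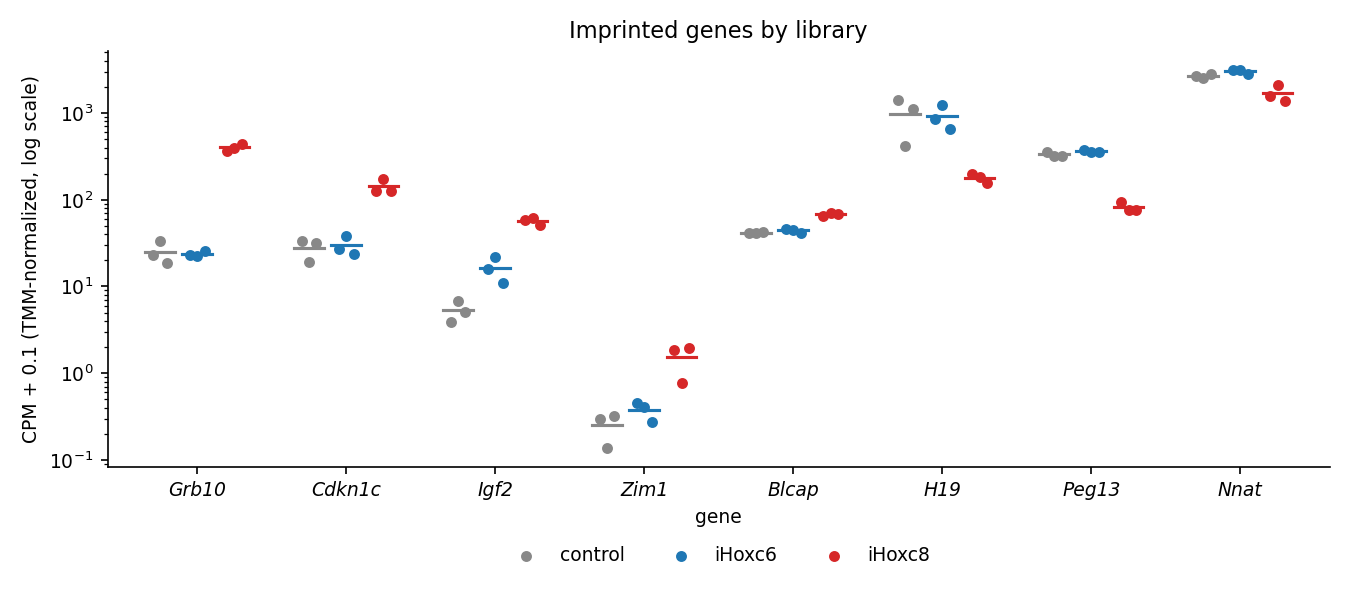
Levels of imprinted genes in each control, iHoxc6 and iHoxc8 library (CPM + 0.1, log scale), with points for libraries and bars for group means. Grb10 is at 369.6 to 438 CPM in iHoxc8 and at most 32.9 CPM in the control and iHoxc6 libraries, and of the groups shown H19, Peg13 and Nnat are lowest in iHoxc8.

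The 250 bases before 2 annotated Grb10 starts are shown because the gene is transcribed from alternative promoters whose counts the gene value sums. Both are on the minus strand of GRCm38.p6, at chr11:12037421-12037670 (upstream, 81.2% GC, 40 CpG) and chr11:12027972-12028221 (downstream, 54% GC, 8 CpG). Capitals mark TAAT on either strand, with 0 matches upstream and 1 downstream.
Grb10 upstream: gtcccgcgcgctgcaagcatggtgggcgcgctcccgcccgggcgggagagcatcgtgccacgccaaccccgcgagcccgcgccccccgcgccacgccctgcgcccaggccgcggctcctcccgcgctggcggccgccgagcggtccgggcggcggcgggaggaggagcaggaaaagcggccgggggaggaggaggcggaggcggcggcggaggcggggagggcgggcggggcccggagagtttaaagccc
Grb10 downstream: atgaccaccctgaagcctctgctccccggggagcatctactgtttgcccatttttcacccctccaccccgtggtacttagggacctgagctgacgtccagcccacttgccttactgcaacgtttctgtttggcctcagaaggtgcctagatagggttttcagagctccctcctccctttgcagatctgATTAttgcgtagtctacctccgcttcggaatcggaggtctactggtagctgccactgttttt

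Hprt, the gene that holds the transgene, was at 11.4 to 13.5 CPM in iHoxc6 and at 28.9, 33.3 and 35.3 CPM in iHoxc8 (1.40, SE 0.16, adjusted p = 3.3e-05), against 1.25 to 2.23 CPM in the control. With GC offsets it was 0.81 (adjusted p = 0.0337). Of 11 genes tested within 500 kb of it, 6 had a mean of at least 1 CPM in a group. Of the 11, 4 were higher and none was lower, beside 3.07% higher among all tested genes. C430049B03Rik, 1 of the 4, had no GC value, and 1 of the others was called with GC offsets. That gene, Phf6, was at 50.8, 51.5 and 48.6 CPM and at 125, 114 and 139 CPM (1.32, SE 0.16, adjusted p = 6.31e-05, 0.63 with GC offsets), with 67.9 to 85.2 CPM in the control. Gpc3, a cell-surface proteoglycan gene in the same window, was at 58.3 to 66.5 CPM and 54.3 to 61.5 CPM (-0.06, SE 0.25).

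Other large differences were in genes of low level. Slc30a3, a vesicular zinc transporter, was at 5.30, 5.04 and 6.25 CPM in iHoxc6 and 0.946, 0.735 and 0.719 CPM in iHoxc8 (-2.78, SE 0.24, adjusted p = 4.93e-07), against 0.924 to 1.41 CPM in the control. Calb2, the calcium-binding protein calretinin, was at 2.86, 1.96 and 2.60 CPM and 0.414, 0.434 and 0.375 CPM (-2.59, SE 0.30, adjusted p = 3.4e-05). Both were called in all 6 fits without a library and with GC offsets. Among the higher genes, Gm364 on the X chromosome was at 0.0934 to 0.313 CPM and 3.84 to 4.17 CPM (4.38, SE 0.30, adjusted p = 6.31e-09). Vstm2a (2.84), Luzp2 (2.64) and Trap1a (2.54) were each below 0.4 CPM in iHoxc6 and above 1 CPM in iHoxc8. Rnu1b1, a U1 small nuclear RNA gene with near-identical copies, was at 9.10, 20.5 and 3.54 CPM and 1.57, 0.301 and 0.688 CPM (-3.68, SE 0.86), kept its call in 1 of 6 fits without a library, lost it with GC offsets (adjusted p = 0.0345) and is uncertain.

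Of the 13 mitochondrially encoded genes 8 were higher and none was lower, with a median log2 fold change of 1.21. With GC offsets 1 was called and the median was 0.35. That gene, ATP8, was at 5.30, 5.35 and 5.35 CPM in iHoxc6 and 169, 131 and 213 CPM in iHoxc8 (5.00, SE 0.67, adjusted p = 0.000167). It overlaps ATP6, at 781 to 1189 CPM and 3472 to 4271 CPM and not called with GC offsets, so reads shared by both are uncertain. The control libraries were at 4.16 to 13.7 CPM for ATP8 and at 1125 to 2978 CPM for ATP6.

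Lists of other cell types and states held few called genes. Of 14 mesoderm and endothelial markers, 3 of which reached a mean of 1 CPM in a group, 1 was lower. It was Col1a2, a collagen chain, at 1.15 to 2.30 CPM in iHoxc6 and 0.200 to 0.414 CPM in iHoxc8 (-2.18, SE 0.46, adjusted p = 0.00479, not called with GC offsets). DESeq2 called 2 of this list, Col1a2 and Meox1, and the paired fit called 2. The summed mesoderm markers were at 1.01 to 1.11 CPM in iHoxc6 and 0.344 to 0.434 CPM in iHoxc8. Of these, Meox1 was at 0.660 to 0.965 CPM and 0.0938 to 0.301 CPM (-2.08, SE 0.56, adjusted p = 0.0206 by edgeR). Of 12 neural crest and glial markers, 2 of which reached a mean of 1 CPM in a group, 1 was higher, and none was called with GC offsets. By edgeR none was called among 20 retinoid, 15 hedgehog, 11 pluripotency, 11 endoderm and 25 stress genes. Of these lists 16, 13, 0, 2 and 21 genes reached a mean of 1 CPM in a group. Few or no pluripotency and endoderm genes were thus at a level where a call was likely. In the same order, unadjusted p was under 0.05 for 6, 1, 0, 3 and 11 genes. DESeq2 called 2, 0, 0, 0 and 1, and the paired fit called 9, 3, 0, 1 and 12. Across all lists 50 of 432 tested members were called (11.6%), and 25 with GC offsets. Among all expressed genes the share was 5.41%, and lists rich in expressed genes are not compared with it by a test.

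A stretch of chromosome 10 held lower genes in iHoxc8. Its 34 consecutive expressed genes, from P4ha1 to Ccar1 (chromosome 10, 59323197 to 62792368, mm10), all had a log2 fold change below 0 with GC offsets, and 33 did without. With these offsets it was the longest run of 1 sign among expressed genes of the genome, and it was chosen after the values were seen. The median log2 fold change was -0.62, and -0.52 with GC offsets, and 15 and 10 of the genes were called. Among all expressed genes 0.667% were lower, and 0.513% with GC offsets. Across the alternatives listed at the end the median ranged from -0.67 to -0.52. The genes were picked by this sign and these fits share libraries, so the sign of the medians and the calls are no separate evidence. Psap, a lysosomal protein precursor, was at 483, 508 and 475 CPM in iHoxc6 and at 277, 311 and 280.4 CPM in iHoxc8 (-0.75, SE 0.18, adjusted p = 0.00905), with 254 to 391 CPM in the control. It was not called with GC offsets (-0.55, adjusted p = 0.0312) and kept its call in 1 of 6 fits without a library. Unc5b, the netrin receptor described above, lies in the same stretch. Over the control, the median log2 ratio of the 34 genes was 0.13 in iHoxc6 and -0.43 in iHoxc8, and 0.09 in iHoxc9 and 0.13 in iHoxc10, which share those control libraries.

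**Figure D5:**
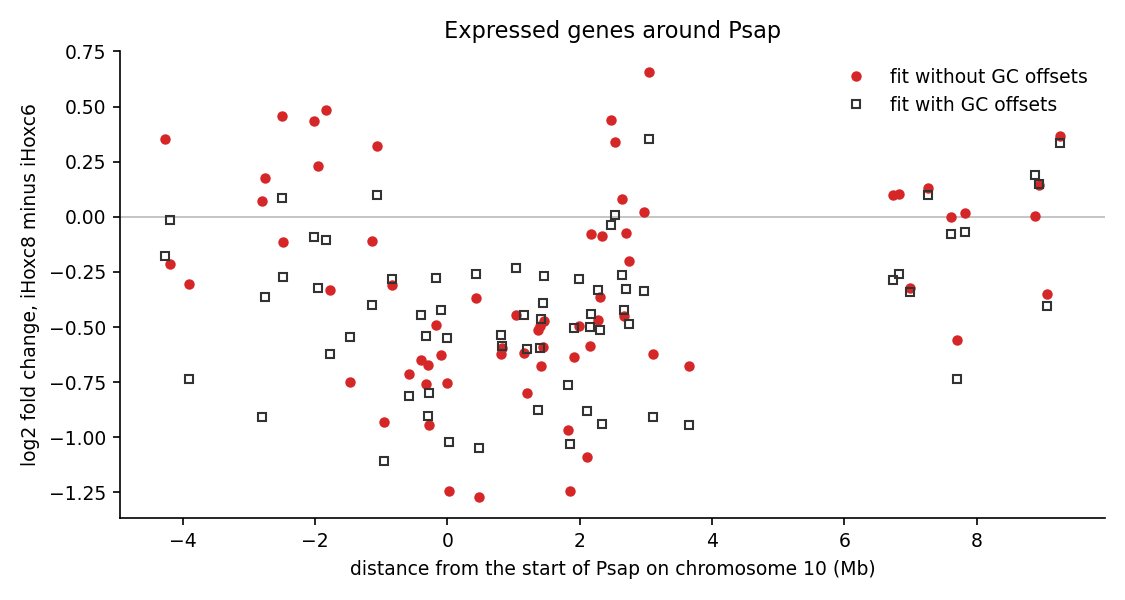
Log2 fold change (iHoxc8 minus iHoxc6) of expressed genes by distance in Mb from the start of Psap on chromosome 10, without and with GC offsets. Values from about -1 to 2.5 Mb lie below 0 in nearly all genes in both fits.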

How the data were processed

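RNA of whole embryoid bodies was sequenced from poly(A)-selected, stranded libraries. The authors aligned reads with STAR (version 2.7.0c) to mm10, counted them per RefSeq gene with featureCounts and deposited raw counts per gene and library, keyed by Entrez ID. The strand setting of the counting is not given in the sources used here. Of 27179 identifiers 25275 were matched to a symbol.

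From the deposited counts, 1 edgeR (version 4.0.16, R 4.3.3) quasi-likelihood model with TMM normalization was fitted to all 18 libraries, and iHoxc8 was contrasted with iHoxc6. The test covered genes that had 1 count or more in at least one library of an induced line, and p-values were adjusted over all of them by Benjamini-Hochberg. Genes were called at adjusted p under 0.01, with a log2 fold change above 2 where stated. Fold changes are fitted, and the lower bound of Hoxc8 uses 3 counts in the iHoxc6 library with the highest such floor. DESeq2 (version 1.42.0) was an alternative. The procedure was tested on simulated data. Those libraries were drawn independently with the same spread for every gene, so outlying or paired libraries were not tried.

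GC offsets were a natural spline with 5 degrees of freedom fitted for each library to log2 CPM against transcript GC content. These offsets and the scan of chromosomes were chosen after seeing the data. The members and gene lists were chosen with earlier results of these data known. Named genes were the induced pair, the 12 largest changes in each direction with at least 1 CPM in the higher group and no overlap between groups, up to 4 called genes of each list in each direction, and chosen Hox, motor neuron and Hprt-region genes. The study's replicates were separate differentiations. Same-numbered iHoxc6 and iHoxc8 libraries deviated together (r = 0.23, 0.56 and 0.53 over 13192 genes), so the numbers were taken to pair them. Unlike numbers also did for iHoxc6 3 with iHoxc8 1 (r = 0.206) and 1 with 3 (0.135). For the others r was -0.21 to -0.56. The labels state no pairing, and the paired fit cannot show that it is real, because the pairing was taken from the same values. Some genes are not reported here.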

Additional observations from a re-analysis of the deposited data

How the results depend on the processing

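The count of 65 called genes was 27 to 70 when 1 library was left out, 17 with GC offsets and 17 when these were joined with the replicate block, 20 with GC and length offsets and 22 with the replicate block added, and 98 with only the 6 libraries and the replicate block. It was 397 at a log2 fold change above 1 and 744 by adjusted p alone. The fits with offsets cover only genes with a GC value, for which it was 48 without offsets, and 632 by adjusted p alone. The 744 genes became 1576 by DESeq2, 1147 with only the 6 libraries compared, 1244 with the 15 day 4 libraries and 120 to 1318 with 1 library left out. They became 179 with GC offsets, 188 with the replicate block added, 264 with GC and length offsets, 297 with the block added, and 4937 with only the 6 libraries and the replicate block. The 50 called list members became 76 by DESeq2, 17 to 64 with 1 library left out, 25 with GC offsets and 25 with the block added, 32 with GC and length offsets and 33 with the block added, 163 with only the 6 libraries and the block, and 12 at a log2 fold change above 2. The replicate block in the fit of all libraries gave 857 and 64 genes and 55 list members, and changed no call among the 74 tested genes that were named. With only the 6 libraries and the replicate block, 8 of these gained a call: Foxp1, Aldh1a2, Lhx1, Isl1, Isl2, Mnx1, Gm14586 and Mospd1. With GC offsets 25 named genes lost their call, 42 did not change side and Lhx1 gained one. No result reversed. The log2 level of Hoxc8 in iHoxc8 over Hoxc6 in iHoxc6 was -0.40 in CPM and -0.64 per kilobase of annotated exon, which need not be the transgene length. The cause of these shifts was not tested. With 3 libraries a group, calls of genes near 1 CPM rested on few reads and depended most on single libraries.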

Other observations

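Some genes outside the lists, chosen after their values were seen, belong to visceral and branchial motor neurons. Tbx20, a T-box factor of these neurons, was at 1.36, 1.99 and 1.60 CPM in iHoxc6 and 7.93, 7.11 and 10.5 CPM in iHoxc8 (log2 fold change 2.36, SE 0.27, adjusted p = 3.2e-05 by edgeR). The control lay between them at 3.97 to 4.34 CPM. Tbx20 was called in all 6 fits without a library and with GC offsets. Tbx2 (1.14, SE 0.25, adjusted p = 0.00568) was higher but kept that call in 0 of 6 such fits. Phox2a, at 12.8 to 17.1 CPM and 18.7 to 27.6 CPM, was not called (0.53, SE 0.30, adjusted p = 0.304).

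A pair of receptor genes was also chosen after their values were seen. Glra2, a glycine receptor subunit, was at 0.802, 1.21 and 0.799 CPM in iHoxc6 and 4.38, 4.47 and 2.94 CPM in iHoxc8 (2.05, SE 0.33, adjusted p = 0.000773). Gabrb2, a subunit of the GABA-A receptor, was at 0.778 to 1.25 CPM and 2.50 to 4.88 CPM (1.83, SE 0.30, adjusted p = 0.000877). Of 421 Zfp, Zscan and Zkscan zinc-finger genes 54 were higher and none was lower by edgeR (12.8%), and 4 of 406 were with GC offsets. The median GC content of these genes was 44.5%.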
